A study of Mus musculus with 7 samples.

Results

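The genes described are the mouse genes of 6 families of histone-modifying enzymes, followed from the germinal vesicle (GV) oocyte to the metaphase II (MII) oocyte. Members were the entries of the expression tables whose symbol begins with Kdm, Kmt, Hdac, Kat, Setd, Prmt or Sirt followed by a digit or a b, without the katanin genes. This gave 70 of the 25912 listed entries, of which 34 code for writers and 36 for erasers of histone marks. The writers were 8 lysine acetyltransferases, 18 lysine methyltransferases of the Kmt and Setd names and 8 arginine methyltransferases. The erasers were 18 lysine demethylases, 11 histone deacetylases and 7 sirtuins. The families were taken by name, so they also hold enzymes whose known substrates are not histones, such as the mitochondrial Sirt3, Sirt4 and Sirt5 and the actin methyltransferase Setd3.

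mRNA levels came from Smart-seq2 on 7 libraries of 10 oocytes each, from C57BL/6 females of 4 weeks that had been primed with gonadotropin. GV oocytes (n = 2) were arrested in prophase I and are labelled as untreated, although the study's methods give GV controls the solvent too, MII+DMSO oocytes (n = 3) were matured in culture with the solvent dimethylsulfoxide, and MII+BYBX oocytes (n = 2) with BYBX in place of the solvent alone. BYBX is a fluorescent ligand that binds and stabilizes RNA G-quadruplexes (rG4s), four-stranded folds of G-rich RNA. The labels of these libraries do not give the dose of BYBX or whether each pooled oocyte had emitted its first polar body.

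Writers place acetyl or methyl groups on histone tails and erasers remove them, and the balance between them sets which marks a nucleosome carries. A fully grown oocyte is transcriptionally silent, so through meiotic maturation these enzymes are made from stored maternal mRNA, part of which is degraded before MII. In mouse oocytes, histones lose acetyl groups during meiotic maturation by the action of deacetylases, and the marks shaped during oocyte growth by enzymes such as Kmt2b, Setd2 and Kdm1b are needed for a competent egg. Smart-seq2 captures mRNA by its poly(A) tail, so a change in tail length and a change in mRNA number cannot be told apart in these values.

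The deposited values were FPKM (fragments counted relative to transcript length and to library size) that the authors had scaled to a spiked-in RNA standard, and the summed FPKM fell from 402113 to 489569 in GV to 109732 to 127254 in MII+DMSO, with 201482 to 246710 in MII+BYBX. Most genes followed this fall, and the median change of the 9202 tested entries was -1.83 for MII+DMSO minus GV, 0.84 for MII+BYBX minus MII+DMSO and -0.99 for MII+BYBX minus GV, on the log2(FPKM + 1) scale used for all changes here. A member is therefore described at the deposited scale and also after 2 rescalings, to the same total FPKM per library and to the same median (median centring), after which the 3 median changes were -0.56, 0.34 and -0.17, and 0.47, -0.44 and 0.04. The added 1 FPKM compresses the changes of members near or below 1 FPKM at every scale. A call as higher after median centring therefore does not mean that such a member was kept better than the typical gene. All 12 oocyte markers were detected in every group, and 14 granulosa and cumulus cell markers together reached 9.71 to 18.3 FPKM in GV, 2.11 to 2.48 in MII+DMSO and 4.11 to 4.71 in MII+BYBX. Their part in the results below was not tested.

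Sequences that could bear on stability or tail length were looked for first, in the longest protein-coding GENCODE vM21 transcript of each gene on GRCm38 (mm10). A predicted rG4 motif meant GGG or a longer G run 4 times over, each separated by 1 to 7 bases, on the mRNA strand. It was present in 10 of the 50 tested members (20%), beside 18.5% of the 8799 tested entries with a transcript. By region, the coding sequence of 5 members, the 3′UTR of 6 and the 5′UTR of 1 held it. A motif was assigned to the region of its first base. The Sirt5 motif, at transcript bases 402 to 425, starts in a coding sequence annotated as 407 bases, and most of it lies in the 3′UTR. That Sirt5 transcript has no annotated 5′UTR. The motifs below are all those found in each member shown, with the G runs in capitals and the letters given as cDNA.
Kat2a coding sequence, chr11:100712213-100712239, minus strand: GGGagcacaGGGagtGGGGGcgccGGG
Kmt2b coding sequence, chr7:30583355-30583381, minus strand: GGGGGGcGGGagctGGGGGGtcccGGG
Kmt2d coding sequence, chr15:98852122-98852145, minus strand: GGGcccacaGGGGaGGGctatGGG
Kmt2d 3′UTR, chr15:98833458-98833481, minus strand: GGGGtgtGGGGGGtaGGGtgaGGG
Kdm6b coding sequence, chr11:69404784-69404808, minus strand: GGGccttGGGcccGGGagcacaGGG
Kdm6b 3′UTR, chr11:69398732-69398755, minus strand: GGGcaGGGcctctctGGGGcaGGG
Kdm6b 3′UTR, chr11:69398641-69398662, minus strand: GGGctgcggaGGGGtGGGGGGG
Kdm5c 3′UTR, chrX:152273336-152273360, plus strand: GGGcaGGGGatctactGGGGctGGG
Kdm7a 3′UTR, chr6:39137214-39137241, minus strand: GGGtgttggaGGGtggtaatGGGGaGGG
Sirt5 coding sequence, chr13:43385633-43385656, plus strand: GGGtgatGGGagatggaGGGtGGG
Sirt6 3′UTR, chr10:81622390-81622409, minus strand: GGGtatgtGGGGcGGGaGGG
Prmt1 3′UTR, chr7:44976846-44976870, minus strand: GGGGGctcGGGGGGatGGGcttGGG
Kdm6b held 3 such motifs and Kmt2d 2. No match was found in the transcripts of Kat8, Setd4, Prmt7, Sirt7 and Kat14, the members described next as those that fell most, which says only that these letters are not in those transcripts.

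The second motif searched was TTTTAT, the core of the cytoplasmic polyadenylation element that controls tail length of maternal mRNAs, on the mRNA strand of the 3′UTR. It was found in 31 of the 50 tested members (62.0%) and in 56.9% of the tested entries with a transcript, and within the last 100 bases of 12 members (24%) and 15.6% of entries. The stretches shown, with the motif in capitals, are from Kdm7a, the member with most copies, from Kdm6a and Kmt5a, which were not called lower in MII+DMSO, and from Setd4, where the motif lies at the end of the transcript and the level fell.
Kdm7a 3′UTR, chr6:39142901-39142930, minus strand: gtagtgtcttgaTTTTATttttcagtagta
Kdm6a 3′UTR, chrX:18278943-18278972, plus strand: gaagacaacctcTTTTATatttctcgattt
Kmt5a 3′UTR, chr5:124460938-124460967, plus strand: tattaccaaaacTTTTATattctagttgtt
Setd4 3′UTR, chr16:93583460-93583483, minus strand: gaataaacagacTTTTATatgaaa

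Of the 70 members, 50 had a mean of the 3 group means of at least 1 FPKM and were tested, 25 writers and 25 erasers. The other 20, 9 writers and 11 erasers, were at or below 1.68 FPKM in every library, and 5 of them stayed under 0.1 FPKM throughout. These 5 were the lysine methyltransferases Kmt2a and Setd7, the arginine methyltransferase Prmt8, the deacetylase Hdac5 and the demethylase Kdm5d. The acetyltransferase Kat2b and the deacetylase Hdac7 were also among the 20. In GV oocytes 53 members had a mean of at least 1 FPKM and 27 of at least 10 FPKM. These counts were 35 and 6 in MII+DMSO and 47 and 16 in MII+BYBX.

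**Figure D1:**
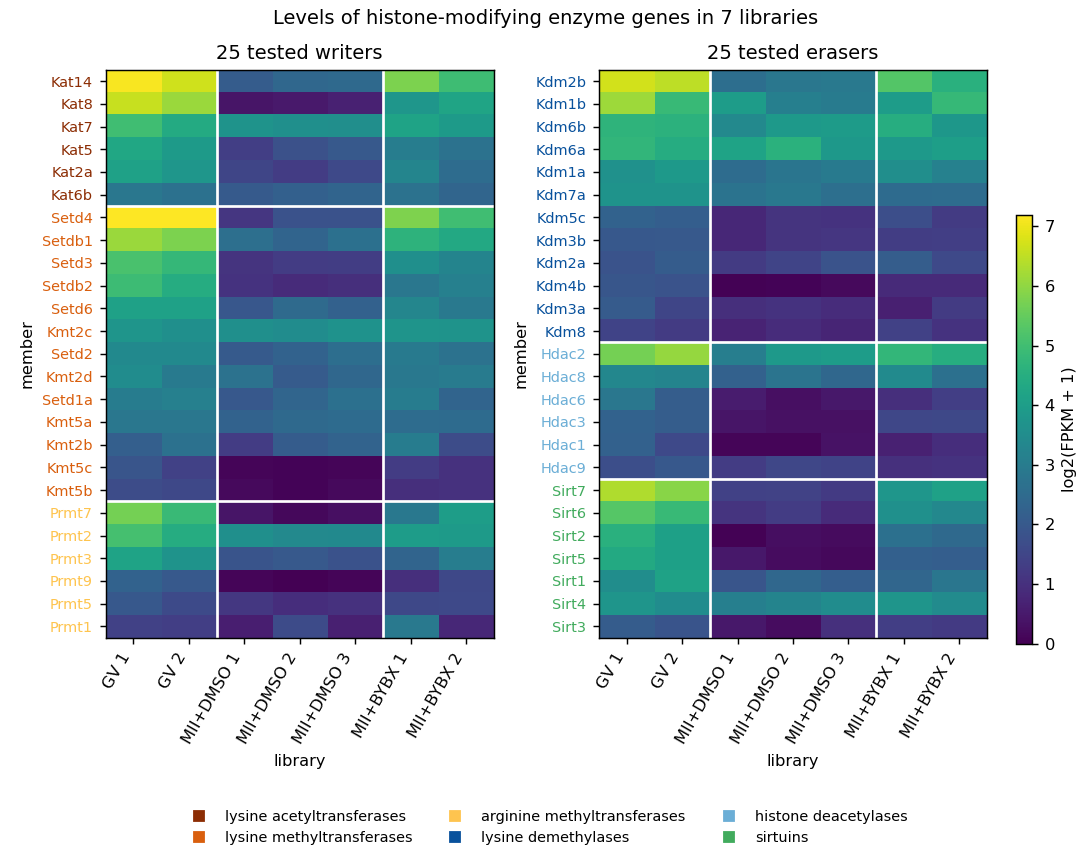
Level of each tested member, as log2(FPKM + 1) by color, in the 2 GV, 3 MII+DMSO and 2 MII+BYBX libraries, with 25 writers on the left and 25 erasers on the right, ordered by class and GV level. The rows of Kat8, Setd4, Prmt7 and Sirt7 darken in all 3 MII+DMSO libraries and are lighter again in MII+BYBX, while the row of Kmt2c keeps 1 shade.

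In the comparison of MII+DMSO with GV, which follows normal maturation, 42 of the 50 tested members were lower and 0 were higher at an adjusted p under 0.05 in limma, where 88.3% of all tested entries were lower and 0.272% higher. At an unadjusted p under 0.05 the count of higher members was 0 as well. In 46 of the 50 tested members every MII+DMSO library lay below both GV libraries, beside 92.5% of all tested entries. The median change was -1.55 for writers and -1.42 for erasers, both smaller falls than the -1.83 of all tested entries. This depended on the filter. At 5 FPKM the medians were -2.22 for writers, -1.91 for erasers and -2.22 for all tested entries. Without a filter they were -1.08, -0.95 and -0.68, so writers and erasers both fell more than all entries. With the same total FPKM in every library, 15 members were higher and 21 lower, against 23.3% and 49.5% of all entries, and with the same median 29 were higher and 12 lower, against 48.8% and 26.7%. So the direction of most members depended on the scale, and 12 members were lower at all 3 scales, where 26.7% of all tested entries were. Median centring alone gave the same members and entries, so the agreement of the 3 scales adds nothing to it. These 12 were Kat8, Setd4, Prmt7, Sirt7, Kat14, Sirt2, Sirt6, Sirt5, Kdm2b, Setd3, Setdb2 and Setdb1. The mean FPKM of the median member in MII+DMSO was 21.7% of its GV level, beside 16.3% for the median entry. It was under 10% for 19 members (38.0%, beside 39.2% of entries) and at least 50% for 13 (26.0%, beside 19.5%). Among the 19 were the low members Hdac1, Hdac3, Kdm4b, Kmt5b and Kmt5c, which still counted as higher after median centring.

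**Figure D2:**
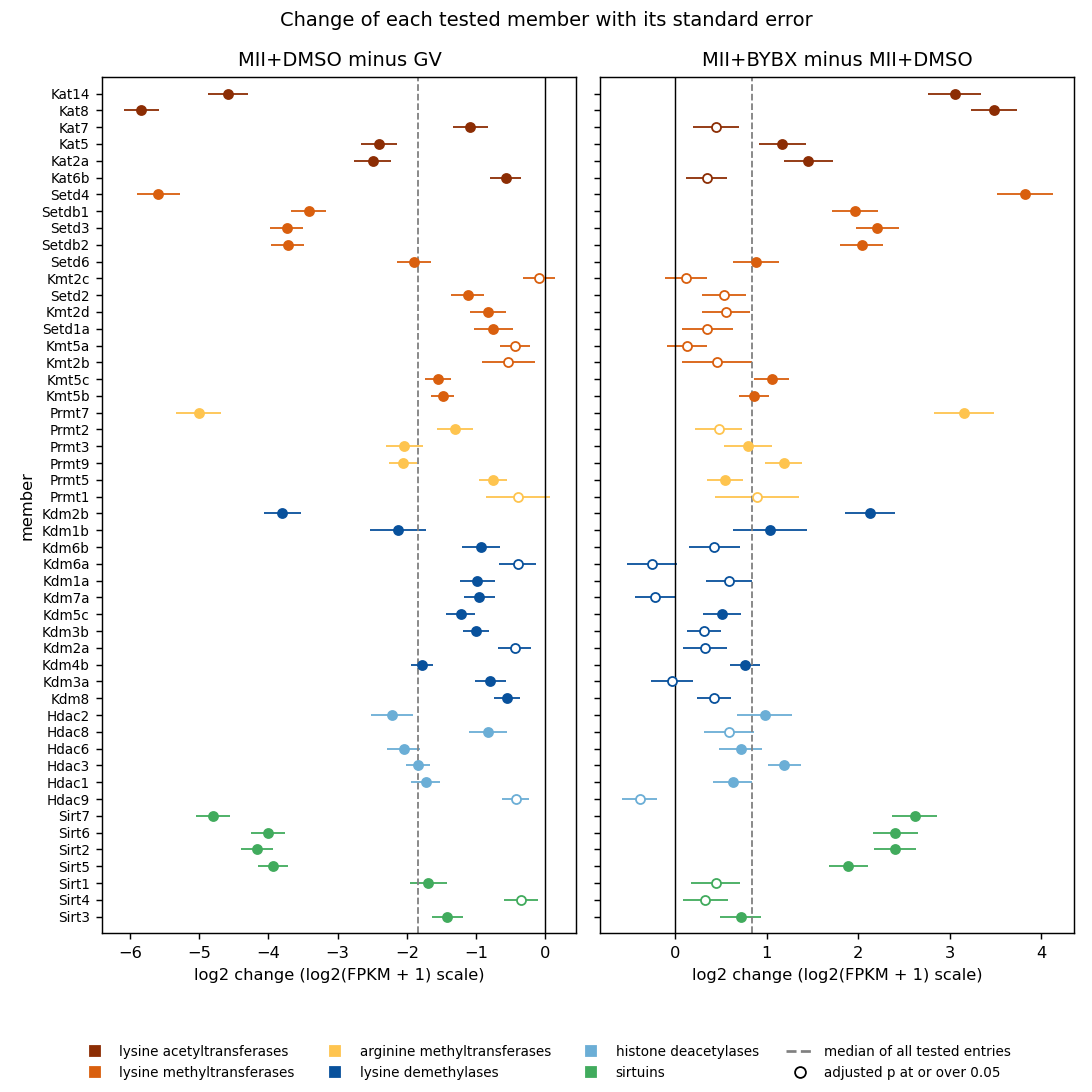
Log2 change of each tested member (point) with its standard error (bar) for MII+DMSO minus GV (left) and MII+BYBX minus MII+DMSO (right), both of which use the same 3 MII+DMSO libraries. Filled points had a limma adjusted p under 0.05, and the dashed line is the median of all tested entries (-1.83 and 0.84). On the left, Kat8 at -5.84 and Kmt2c at -0.09 are the ends of the range.

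All 6 tested acetyltransferases were lower in MII+DMSO, as were 88.3% of all tested entries, by very different amounts. Kat8 (MOF), which acetylates histone H4 (chr7:127912516-127925837, plus strand), was at 95.3 and 67.9 FPKM in the GV libraries, at 0.321, 0.396 and 0.568 in MII+DMSO and at 12.8 and 17.3 in MII+BYBX. The MII+DMSO libraries lay below all others by a wide margin, and MII+BYBX lay between them and GV without overlap. Kat8 fell by 5.84 ± 0.25 on the log2 scale (limma adjusted p = 3.24e-10), the largest fall of any member, to 0.525% of its GV mean. Kat14, an acetyltransferase of the ATAC coactivator complex (chr2:144368983-144407676, plus strand), was at 138 and 101 FPKM in the GV libraries, at 3.29, 4.27 and 4.48 in MII+DMSO and at 53.7 and 30.4 in MII+BYBX. The groups did not overlap, and it fell by 4.58 ± 0.29 on the log2 scale (limma adjusted p = 4.18e-09), where 14.8% of its exonic bases also belong to the gene Pet117, whose reads could not be told apart. Kat7 and Kat6b, acetyltransferases of BRPF complexes, kept more, with a mean in MII+DMSO of 44.2% and 61.6% of GV. Kat5 (Tip60) and Kat2a (Gcn5) stood in between, at 14.2% and 12.1%. With the same median in each library Kat7 and Kat6b were higher in MII+DMSO, Kat8 and Kat14 lower, and Kat5 and Kat2a not called.

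Among the lysine methyltransferases 10 of 13 tested members were lower in MII+DMSO, and after median centring 4 were lower and 8 higher. Over all tested entries 88.3% were lower, and after median centring 26.7% were lower and 48.8% higher. Setd4, a SET domain methyltransferase that was the most abundant member of all in GV oocytes (chr16:93583457-93604063, minus strand), was at 143 and 144 FPKM in the GV libraries, at 1.19, 2.51 and 2.53 in MII+DMSO and at 55.4 and 31.1 in MII+BYBX. Its GV libraries were within 1 FPKM of each other and no group overlapped another. Setd4 fell by 5.59 ± 0.30 on the log2 scale (limma adjusted p = 1.20e-09). Setdb1, which methylates histone H3 to silence retroelements, was at 68.6 and 54.3 FPKM in the GV libraries, at 5.23, 4.01 and 5.27 in MII+DMSO and at 24.1 and 19.3 in MII+BYBX, and its relative Setdb2 at 29.6 and 20.8 FPKM in the GV libraries, at 1.08, 0.831 and 0.969 in MII+DMSO and at 6.29 and 7.86 in MII+BYBX. Both fell, by 3.42 and by 3.72 on the log2 scale, and Setdb1 stayed above Setdb2 in every library. Within a library, which needs no scaling, Setdb1 was 2.32 and 2.61 times Setdb2 in GV, 4.83 to 5.43 times in MII+DMSO and 3.83 and 2.46 times in MII+BYBX, so the MII+DMSO ratios lay above all others.

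The large methyltransferases of the Kmt2 group, which place methyl groups on histone H3 at enhancers and promoters, contrasted with these. Kmt2c was at 12.5 and 11.1 FPKM in the GV libraries, at 11.1, 10.2 and 11.7 in MII+DMSO and at 12.1 and 11.9 in MII+BYBX. All 7 libraries lay between 10.2 and 12.5 FPKM, and the change from GV to MII+DMSO was -0.09 ± 0.23 (limma adjusted p = 0.712). Kmt2c was higher in MII+DMSO after both rescalings, by 1.65 with the same total and 2.21 with the same median. Kmt2d kept 51.1% of its GV mean and Kmt2b, which methylates histone H3 in growing oocytes, 64.3%, the latter with 1.45, 3.29 and 3.9 FPKM in MII+DMSO against 3.49 and 5.46 in GV. Setd2 and Setd1a kept 41% and 55.3%, although 52.3% of the exonic bases of Setd1a also belong to other genes. The methyltransferases of histone H4 lysine were unlike each other, and Kmt5a kept 69.7% where Kmt5b and Kmt5c kept 4.90% and 3.10% of GV means of 2.08 and 2.18 FPKM. At these low levels Kmt5b and Kmt5c still counted as higher after median centring, by 0.82 and 0.75.

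Of the 6 tested arginine methyltransferases 5 were lower in MII+DMSO, and after median centring 1 was lower and 3 were higher. The shares of all tested entries were 88.3% lower, and after median centring 26.7% lower and 48.8% higher. Prmt7, which adds a single methyl group to arginine (chr8:106210936-106252794, plus strand), was at 51.0 and 28.7 FPKM in the GV libraries, at 0.325, 0.113 and 0.233 in MII+DMSO and at 6.43 and 14.9 in MII+BYBX. The MII+DMSO libraries lay far below all others, and the change was -5.01 ± 0.33 (limma adjusted p = 5.33e-09). Prmt2, a weak asymmetric methyltransferase, was at 33.1 and 20.9 FPKM in the GV libraries, at 11.1, 9.57 and 9.64 in MII+DMSO and at 14.6 and 14.2 in MII+BYBX. Its groups did not overlap, it fell by 1.30 ± 0.26 on the log2 scale (limma adjusted p = 0.0003), but its change was 0.48 and 1.0 after the rescalings. Prmt5, the main symmetric methyltransferase, fell from a mean of 2.5 to 1.06 FPKM. Prmt1, the main asymmetric one, was at 1.61 and 1.51 FPKM in the GV libraries, at 0.526, 2.11 and 0.540 in MII+DMSO and at 6.45 and 0.737 in MII+BYBX. MII+DMSO 2 and MII+BYBX 1 stood above the other library or libraries of their groups, and no change of Prmt1 was called at the deposited scale.

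Of the 12 tested lysine demethylases 10 were lower in MII+DMSO, with a median of -0.97, and 10 were higher and 1 lower after median centring. Beside them 88.3% of all tested entries were lower, and 48.8% were higher and 26.7% lower after median centring. Kdm2b, a CpG-binding demethylase of histone H3 and the most abundant eraser in GV and MII+BYBX, though not in MII+DMSO (chr5:122870665-122989823, minus strand), was the 1 that stayed lower, at 104 and 87.6 FPKM in the GV libraries, at 5.11, 6.19 and 6.58 in MII+DMSO and at 37.5 and 22.9 in MII+BYBX. It fell by 3.8 ± 0.27 on the log2 scale (limma adjusted p = 1.32e-08) with no overlap between groups. Kdm1b, the demethylase needed to set maternal imprints, was at 69.5 and 27.8 FPKM in the GV libraries, at 14.9, 7.58 and 6.97 in MII+DMSO and at 14.6 and 27.3 in MII+BYBX. The GV libraries stood far apart, and the fall of 2.13 ± 0.41 on the log2 scale passed the test at the deposited scale only (limma adjusted p = 0.000215, and 0.51 with the same total). Its paralog Kdm1a (LSD1) was at 11.4 and 13.5 FPKM in the GV libraries, at 4.85, 5.90 and 6.84 in MII+DMSO and at 10.8 and 7.89 in MII+BYBX, a smaller change of -0.98 ± 0.25. Kdm1b exceeded Kdm1a in every library, by 2.05 and 6.07 times in GV, 1.02 to 3.06 times in MII+DMSO and 1.35 and 3.46 times in MII+BYBX, and these ranges overlapped.

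Kdm6a and Kdm6b, which remove the Polycomb methyl mark from histone H3, both lay above the all-gene median. Kdm6a (UTX) was at 25.8 and 20.9 FPKM in the GV libraries, at 17.0, 23.1 and 13.2 in MII+DMSO and at 13.5 and 15.4 in MII+BYBX. The GV and MII+DMSO ranges overlapped, and the change was -0.40 ± 0.27 (limma adjusted p = 0.178). Kdm6b (JMJD3), with its 3 predicted rG4 motifs, was at 24.6 and 23.9 FPKM in the GV libraries, at 9.48, 13.5 and 14.4 in MII+DMSO and at 21.4 and 13.1 in MII+BYBX, a change of -0.93 ± 0.28 (limma adjusted p = 0.00648). Kdm6b fell at the deposited scale, to 51.3% of its GV mean. At the other end Kdm4b, of low level, was at 2.80 and 2.55 FPKM in the GV libraries, at 0.0215, 0.0519 and 0.139 in MII+DMSO and at 0.797 and 0.828 in MII+BYBX. Its MII+DMSO mean was 2.65% of GV, yet it counted as higher after median centring, by 0.52.

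Beside 88.3% of all tested entries, 5 of the 6 tested histone deacetylases were lower in MII+DMSO. After median centring 48.8% of all entries were higher and 26.7% lower. Of the deacetylases 4 were then higher and none lower, also at an unadjusted p. Those 4 included Hdac1 and Hdac3, whose MII+DMSO means were 4.78% and 7.71% of GV, below the 16.3% of the median entry. Both were at low levels, where the added 1 FPKM compresses a fall. Hdac2, the main deacetylase of the oocyte nucleus, was at 50.3 and 65.8 FPKM in the GV libraries, at 7.37, 14.0 and 14.9 in MII+DMSO and at 26.5 and 21.3 in MII+BYBX. GV was above MII+BYBX and MII+BYBX above MII+DMSO in every library, and Hdac2 fell by 2.22 ± 0.31 on the log2 scale (limma adjusted p = 1.04e-05), close to the all-gene median. Its paralog Hdac1 was at 3.70 and 1.99 FPKM in the GV libraries, at 0.0660, 0.0657 and 0.277 in MII+DMSO and at 0.592 and 0.920 in MII+BYBX. Hdac2 was above Hdac1 in all 7 libraries, by 13.6 and 33.0 times in GV, 53.9 to 213 times in MII+DMSO, where Hdac1 was at or under 0.28 FPKM, and 23.2 and 44.7 times in MII+BYBX. Hdac8, a class I deacetylase that acts on cohesin, was at 9.09 and 8.57 FPKM in the GV libraries, at 3.71, 5.81 and 4.29 in MII+DMSO and at 9.91 and 5.36 in MII+BYBX. It changed by -0.83 ± 0.27 (limma adjusted p = 0.0117), and its call was lost without either GV library (adjusted p = 0.0803 and 0.0546). Hdac9, a class IIa deacetylase, was the member of this class that was not called, at 2.30 and 2.94 FPKM in the GV libraries, at 1.43, 1.92 and 1.71 in MII+DMSO and at 1.01 and 1.08 in MII+BYBX.

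Sirtuins, the NAD-dependent deacylases, had the deepest median of the 6 classes, -3.93. Of the 7 sirtuins 6 were lower, beside 88.3% of all tested entries. After median centring 4 were lower and 2 higher, beside 26.7% and 48.8% of entries. Sirt7, a deacetylase of the nucleolus (chr11:120618372-120625240, minus strand), was at 80.2 and 59.8 FPKM in the GV libraries, at 1.60, 1.66 and 1.33 in MII+DMSO and at 12.7 and 16.5 in MII+BYBX. The 3 groups did not overlap, and Sirt7 fell by 4.80 ± 0.25 on the log2 scale (limma adjusted p = 7.97e-10). Sirt6, a chromatin deacetylase with an rG4 motif in its 3′UTR, was at 38.7 and 28.0 FPKM in the GV libraries, at 1.13, 1.41 and 0.834 in MII+DMSO and at 11.2 and 9.27 in MII+BYBX, and it fell by 4.00 ± 0.25 on the log2 scale (limma adjusted p = 3.26e-09). Sirt2, a mainly cytoplasmic deacetylase of tubulin and histone H4, and Sirt5, a mitochondrial desuccinylase, fell to 0.651% and 1.28% of their GV means. Sirt1, which acts in the nucleus, kept 25.5%. Sirt4, a mitochondrial sirtuin, was at 12.6 and 10.4 FPKM in the GV libraries, at 7.64, 8.49 and 10.3 in MII+DMSO and at 12.6 and 10.0 in MII+BYBX. Its MII+DMSO libraries lay just below its GV libraries, and the change of -0.35 ± 0.24 was not called (limma adjusted p = 0.183). The sirtuins thus held the eraser that fell most and the one with the smallest change.

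**Figure D3:**
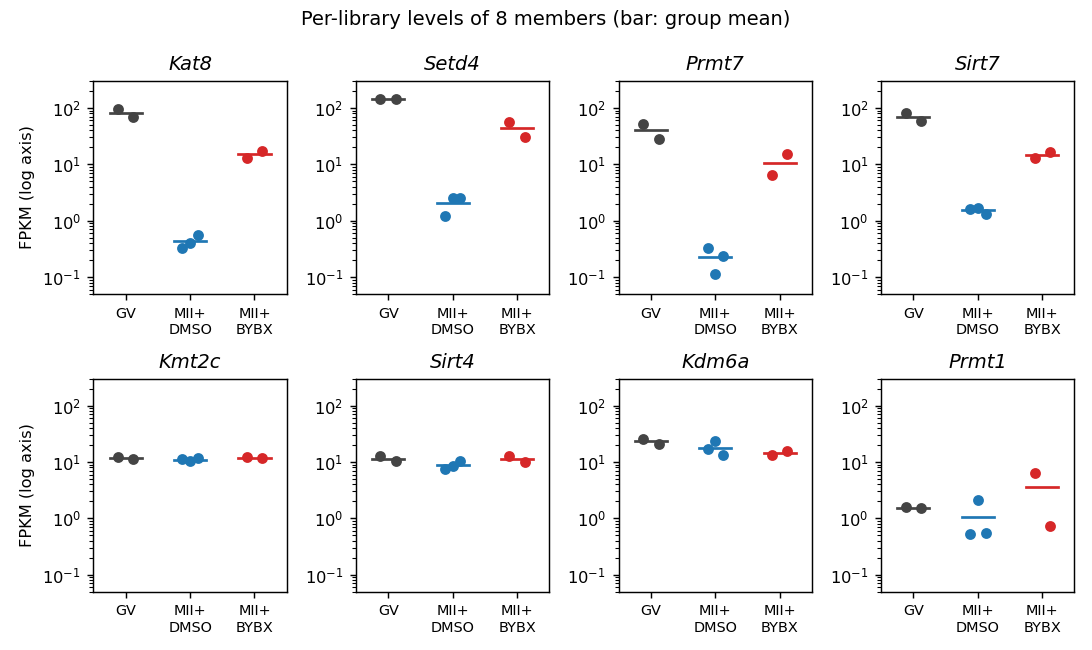
FPKM on a log axis in each library (points) with the group mean (bar) for 4 members that fell far in MII+DMSO (top row) and 4 that were not called (bottom row). In the top row the 3 MII+DMSO libraries reach at most 2.53 FPKM and both MII+BYBX libraries at least 6.43, and in the bottom row the groups overlap or nearly touch, with the 2 MII+BYBX libraries of Prmt1 at 6.45 and 0.74.

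The comparison of MII+BYBX with MII+DMSO asks how oocytes matured with the rG4 ligand differed from those matured with the solvent. At the deposited scale 28 of 50 tested members were higher with BYBX and 0 lower in limma, where 65.2% of all tested entries were higher and 0.0326% lower, and 0 were lower at an unadjusted p under 0.05. The median change was 0.88 for writers, 15 of which were called, and 0.59 for erasers, 13 of which were called, beside 0.84 for all tested entries. With the same total FPKM 18 were higher and 6 lower, against 39.9% and 8.22% of entries, and with the same median 12 were higher and 27 lower, against 18.4% and 43.9%. At all 3 scales 12 members were higher, beside 18.4% of all entries, the same members and entries as after median centring alone. By class the members called at the deposited scale were 4 of 6 acetyltransferases, 7 of 13 lysine methyltransferases, 4 of 6 arginine methyltransferases, 4 of 12 demethylases, 4 of 6 deacetylases and 5 of 7 sirtuins.

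Setd4 rose most with BYBX, by 3.82 ± 0.30 on the log2 scale (limma adjusted p = 2.45e-07), followed by Kat8 at 3.48 ± 0.25 (limma adjusted p = 1.18e-07). Both were higher after median centring as well, by 2.54 and 2.2. Prmt7 rose by 3.16 ± 0.33 and Kat14 by 3.06 ± 0.29, with limma adjusted p = 2.13e-06 and 1.01e-06. In each of these 4 writers both MII+BYBX libraries were above every MII+DMSO library and below every GV library. Most genes showed this order, since 79.0% of all tested entries met the first condition and 82.3% the second. Of the erasers Sirt7 rose by 2.62 ± 0.25 and Kdm2b by 2.13 ± 0.27. The rest of the members higher at all 3 scales were Setd3, Sirt6, Sirt2, Setdb2, Setdb1 and Sirt5, with changes from 1.89 to 2.41. This comparison and that with GV use the same 3 MII+DMSO libraries, so low values in these libraries move both, and the 2 lists are given for themselves and not as support for each other.

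A few members stood lowest under BYBX. Hdac9 was at 1.01 and 1.08 FPKM with BYBX against 1.43, 1.92 and 1.71 with DMSO, a change of -0.39 ± 0.19 (limma adjusted p = 0.0913). Kdm7a, a demethylase of histone H3 with an rG4 motif and 13 copies of TTTTAT in its 3′UTR, was at 4.74 and 4.79 against 5.68, 6.36 and 5.16, a change of -0.22 ± 0.22 (limma adjusted p = 0.389). In these 2 members alone among the 50, both BYBX libraries lay below every MII+DMSO library, beside 0.29% of all tested entries. In 37 members both lay above, beside 79.0% of entries. Kdm6a changed by -0.25 ± 0.27, with overlapping libraries. These 3 demethylase and deacetylase genes were called lower only after rescaling, by -1.04, -1.02 and -1.11 with the same total and by -1.67, -1.50 and -1.53 with the same median.

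The abundant Hdac2 and Kdm1b changed by about as much as the typical gene. After median centring Hdac2 and Kdm1b, at -0.30 and -0.24, were not called, and the low Hdac1 was called lower, at -0.65 (limma adjusted p = 0.0121). Hdac1 had means of 0.136 FPKM in MII+DMSO and 0.756 in MII+BYBX, where the added 1 FPKM compresses a rise. As a percentage of its GV mean Hdac1 went from 4.78% to 26.5%, beside 16.3% and 43.4% for the median entry. Hdac2 rose by 0.97 ± 0.31 with BYBX (limma adjusted p = 0.0128), and the call was lost without MII+DMSO 1 (adjusted p = 0.0533) or MII+BYBX 1 (0.0889). Kdm1b rose by 1.03 ± 0.41 (limma adjusted p = 0.038), with MII+DMSO 1 at 14.9 FPKM above MII+BYBX 1 at 14.6. The call of Kdm1b was lost without MII+DMSO 2 (0.0794), MII+DMSO 3 (0.11) or MII+BYBX 2 (0.269). Hdac1 changed by 0.63 ± 0.21 (limma adjusted p = 0.0184), a call lost without MII+DMSO 2 (0.0609) or MII+BYBX 2 (0.0789). Prmt2, Hdac8 and Kdm1a did not pass, with changes of 0.47, 0.59 and 0.59, although Hdac8 passed without MII+DMSO 2 (adjusted p = 0.0494) or MII+BYBX 2 (0.0141), and Kdm1a without MII+BYBX 2 (0.0412).

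Against GV oocytes, MII+BYBX oocytes had 33 of 50 members lower and 0 higher in limma, where 69.2% of all tested entries were lower and 0.315% higher, and 0 were higher at an unadjusted p under 0.05. The median was -0.83 for writers and -0.83 for erasers, beside -0.99 for all. This order depended on the filter. At 5 FPKM these medians were -1.14, -1.21 and -1.10, and without a filter -0.51, -0.65 and -0.39. With the same total 2 were higher and 5 lower, against 5.3% and 13.3% of entries, and with the same median 8 were higher and 5 lower, against 15.2% and 13.6%. The 4 members lower at all 3 scales, where 11.6% of entries were, were Kat8, Sirt7, Sirt5 and Sirt2. Kat8 changed by -2.36, Sirt7 by -2.18, Sirt5 by -2.05 and Sirt2 by -1.76, with limma adjusted p = 6.30e-05, 6.67e-05, 5.91e-05 and 8.62e-05. Kat8 kept 18.4% of its GV mean with BYBX, Sirt5 19.9% and Sirt7 20.8%, against a median of 46.7% over the tested members and 43.4% over all entries. No tested member was under 10% of its GV mean with BYBX, beside 0.35% of entries.

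The members nearest to or above their GV level with BYBX were Prmt1, Kmt2b, Kmt2c and Sirt4. Prmt1 differed by 0.49 ± 0.51 (limma adjusted p = 0.395), and this rested on MII+BYBX 1, since the value was -0.56 without it and 1.54 without MII+BYBX 2, when it was called (adjusted p = 0.00165). Kmt2c differed by 0.03 ± 0.25 and Sirt4 by -0.03 ± 0.27 (limma adjusted p = 0.926 and 0.934). After the rescalings both were called higher than GV, Kmt2c by 0.92 and 1.05 (limma adjusted p = 0.0262 and 0.0129) and Sirt4 by 0.86 and 1.0 (limma adjusted p = 0.027 and 0.0133). Kmt2b, at 7.19 and 2.19 FPKM with BYBX against 3.49 and 5.46 in GV, differed by -0.08 ± 0.41 (limma adjusted p = 0.875). At the deposited scale the values of Kmt2c and Sirt4 were so near 0 that leaving out 1 library turned their sign, to -0.05 for Kmt2c without GV 2, and to 0.10 and 0.13 for Sirt4 without GV 1 and without MII+BYBX 2.

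A balance of writers and erasers that does not depend on the scale of a library is the ratio of their summed FPKM within it. Writers exceeded erasers in GV, at 1.43 and 1.38, fell below them in all 3 MII+DMSO libraries, at 0.87, 0.77 and 0.90, and exceeded them in both MII+BYBX libraries, at 1.43 and 1.24. The mean was 1.40 ± 0.0382 (SD, n = 2) in GV, 0.846 ± 0.0703 (n = 3) in MII+DMSO and 1.33 ± 0.136 (n = 2) in MII+BYBX. The GV and MII+BYBX ranges overlapped and MII+DMSO lay below both. The order did not change without Setd4 and Kdm2b, the writer and the eraser of highest level (1.38, 0.878 and 1.32). No test was run on this ratio. The share of the writers' sum held by Setd4, Kat14 and Kat8 was 49.2% and 51.6% in GV, 6.07% to 8.57% in MII+DMSO, and 41.2% and 34.2% in MII+BYBX. Without these 3 writers the ratio was 0.726 and 0.666 in GV, 0.701 to 0.824 in MII+DMSO and 0.84 and 0.813 in MII+BYBX, and MII+DMSO overlapped MII+BYBX in range and exceeded GV in 2 libraries. Without the 3 most abundant members on both sides, which adds Kdm2b, Sirt7 and Hdac2, it was 1.29 and 1.29, 0.876 to 1.07, and 1.33 and 1.21, with MII+DMSO again the lowest.

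As a share of the total FPKM of a library, writers took 0.156% and 0.151% in GV, 0.0678% to 0.072% in MII+DMSO, and 0.12% and 0.114% in MII+BYBX. Erasers took 0.109% and 0.11%, 0.0788% to 0.0884%, and 0.084% and 0.0924%. The writers' share did not overlap between any groups, and the erasers' share was higher in GV and overlapped between the MII groups. By class, acetyltransferases went from 0.0590% ± 0.00494 (SD, n = 2) in GV to 0.0202% ± 0.000544 (n = 3) in MII+DMSO and 0.0407% ± 0.00351 (n = 2) in MII+BYBX. Sirtuins followed the same order, with 0.0378% ± 0.000842, 0.0131% ± 0.000404 and 0.0231% ± 0.00322, as did lysine methyltransferases, with 0.0748% ± 0.00521, 0.0372% ± 0.00206 and 0.0591% ± 0.00513. Demethylases differed little between groups, with 0.0527% ± 0.00293, 0.0539% ± 0.00533 and 0.0484% ± 0.00291, and deacetylases were at 0.0190% ± 0.00420, 0.0161% ± 0.00314 and 0.0167% ± 0.000135. In both of these classes the GV and MII+DMSO ranges overlapped.

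**Figure D4:**
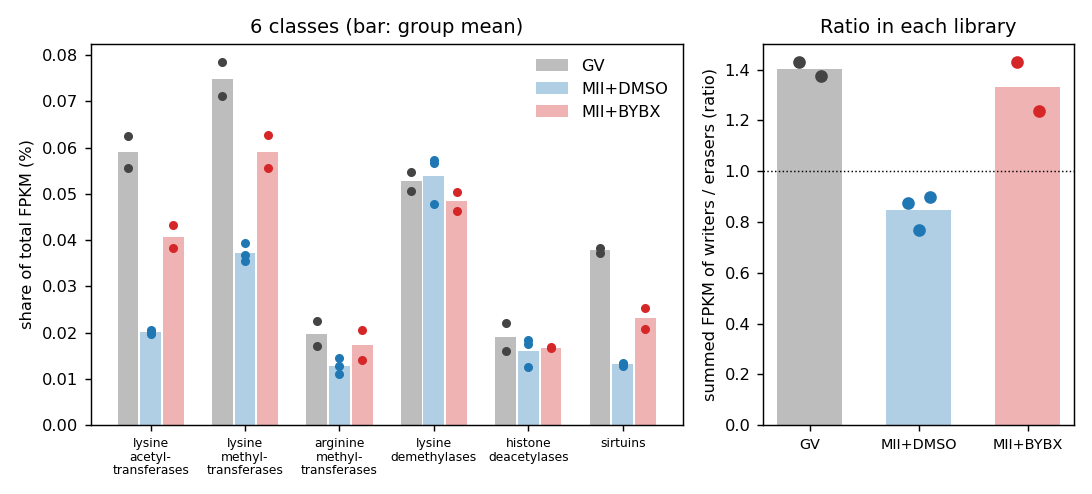
Left, share of a library's total FPKM (%) taken by each of the 6 classes, and right, ratio of the summed FPKM of writers to that of erasers, with points for libraries and bars for group means. The ratio is above 1 (dotted line) in GV and MII+BYBX and below 1 in the 3 MII+DMSO libraries, and the demethylase bars are nearly level.

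What the members shared beside their role was described by transcript length and by the motifs searched. Over the 50 tested members, Spearman's coefficient of length with the change was 0.41 for MII+DMSO minus GV and -0.52 for MII+BYBX minus MII+DMSO, and over the 8799 tested entries with a transcript it was 0.34 and -0.37. The points share the same 7 libraries, so no p is given. The 15 members of at least 5000 bases had a median change of -0.83 in MII+DMSO and of 0.35 with BYBX, and the 16 members under 2500 bases of -1.87 and 1.03. For all entries these medians were -1.18 and 0.49 for long transcripts and -2.41 and 1.23 for short ones. Members of either length class thus had a smaller median fall than the entries of that class.

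**Figure D5:**
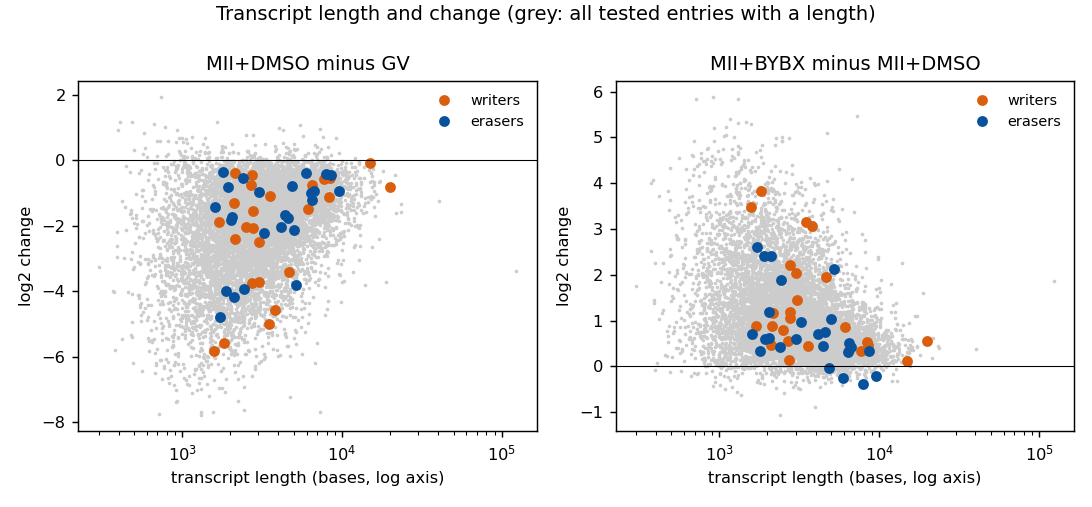
Log2 change against transcript length (bases, log axis) for writers (orange) and erasers (blue) over all tested entries with a transcript (grey), for MII+DMSO minus GV (left) and MII+BYBX minus MII+DMSO (right). Long members lie nearer to 0 in both panels (Spearman 0.41 and -0.52, n = 50), as the grey cloud does.

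By motif, the 10 members with a predicted rG4 had a median change of -0.98 in MII+DMSO minus GV and the 40 without of -1.71, beside -1.58 and -1.90 for all entries with and without. For MII+BYBX minus MII+DMSO these medians were 0.53 and 0.74 for members and 0.77 and 0.86 for all entries. Members with TTTTAT in the 3′UTR had a median of -1.08 in MII+DMSO, against -2.04 without, and 0.55 against 0.88 with BYBX, beside -1.47 against -2.37 and 0.64 against 1.19 for all entries. The members with either motif thus changed less than those without in both comparisons, as did all entries. The motifs' part in these differences, apart from length, was not tested.

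Other enzymes listed as writers or erasers of histone marks were counted beside the members. These lists went beyond acetyl and methyl groups, with kinases such as Bub1 among the writers and deubiquitinases such as Usp16 among the erasers. Of 25 tested writers outside the naming rule 23 were lower in MII+DMSO than in GV, with a median of -1.37, and 16 were higher with BYBX, with a median of 0.71, where median centring gave 17 higher and 2 lower, and 3 higher and 15 lower. Over all tested entries the shares were 88.3% lower in MII+DMSO and 65.2% higher with BYBX, and after median centring 48.8% higher and 26.7% lower, and 18.4% higher and 43.9% lower. The deepest falls were those of the kinase Bub1 (-4.89) and the methyltransferase Suv39h1 (-4.72), and the acetyltransferase Ep300 (0.22) and the methyltransferase Dot1l (-0.29) did not pass the test. Of 8 tested erasers outside the rule 7 were lower in MII+DMSO (median -2.39) and 5 were higher with BYBX (median 1.11), where median centring gave 2 higher and 1 lower, and 3 lower. Counted among them was Padi6, of the arginine deiminase family, which went from 1755 FPKM in GV to 255 in MII+DMSO and 843 in MII+BYBX. Whether Padi6 acts on histones was not tested, so its level is not that of a known eraser.

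Partners that build the enzymes' complexes were counted too. Of 38 tested, 28 were lower in MII+DMSO, with a median of -1.08, and 18 were higher with BYBX, with a median of 0.58, where median centring gave 27 higher and 8 lower, and 5 higher and 19 lower, so the shares lower in MII+DMSO and higher with BYBX at the deposited scale were below the 88.3% and 65.2% of all entries. Sgf29, a reader subunit of the Kat2a and Kat14 complexes, fell from 271 to 2.74 FPKM and was at 67.8 with BYBX, changes of -6.20 and 4.21. Of the subunits that the Kmt2 and Setd1 enzymes share, Ash2l fell by 2.81 and Rbbp5 by 2.93 on the log2 scale, Wdr5 fell by 1.44, and Dpy30 was at 197, 219 and 276 FPKM in GV, MII+DMSO and MII+BYBX (change 0.12, limma adjusted p = 0.729). Sap30, a subunit of the Hdac1 and Hdac2 complex with Sin3a, was at 116, 123 and 149 FPKM (0.03, limma adjusted p = 0.936), where Sin3a itself fell by 0.68.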

How the data were processed

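Per the labels and the study's methods, the authors trimmed reads with Trim Galore 0.6.7, aligned them to mm10 with HISAT2 2.2.1, computed FPKM with Cufflinks 2.2.1 on UCSC gene models and scaled the deposited FPKM to an ERCC spike-in and, between batches, to GV samples. The factors are not given in the sources used here. Cufflinks estimates do not keep reads, so depth is unknown and no counting interval is given. Precision is that of 2 or 3 libraries a group. That the libraries came from separate animals is not stated, so the spread may be technical.

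Values were analysed as log2(FPKM + 1) with limma 3.58.1 in R 4.3.3 (intensity trend, 7 libraries in 1 model, 4 residual degrees of freedom) over 9202 entries whose 3 group means averaged 1 FPKM or more, after 4 entries with a missing value were left out. P-values were adjusted over all 9202 by Benjamini-Hochberg, and calls were made under 0.05. In data simulated for MII+BYBX minus MII+DMSO, over 9202 genes, limma recovered 54% of 2-fold and 88% of 4-fold changes with 7 false calls. For MII+BYBX minus GV, over the same 9202, it recovered 30% and 86% with 4 false calls. Only 200 genes were changed in the simulation. In the real data 65.2% of entries were called higher in the first of these comparisons and 69.2% lower in the second. The simulated rates therefore do not carry over to the real comparisons.

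Members, classes and lists were chosen with earlier results of these data known. The rule named the 2 most abundant members in GV of each class, the 3 highest and 3 lowest changes of each comparison, members called against the majority, up to 4 called one way at all 3 scales per comparison, and tested paralog pairs. Other members were named after their values were seen. Of the 9202 entries 8799 (95.6%) matched a GENCODE vM21 transcript by symbol, as did all 70 members. The erythrocyte markers together reached at most 1.20 FPKM. Alternatives were a pseudocount of 0.1, a filter at 5 FPKM or none, same total FPKM, median centring, fits of 2 groups at a time, a replicate block, a fit without the trend, a 2-fold minimum, and each library left out. Tables and plots used Python 3.11.15, numpy 2.4.6, pandas 2.3.3 and matplotlib 3.10.9.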

Additional observations from a re-analysis of the deposited data

How the results depend on the processing

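The scale set most directions. In the order same total FPKM and median centring, members lower in MII+DMSO than in GV numbered 21 and 12 and members higher 15 and 29, in place of 42 and 0. For MII+BYBX minus MII+DMSO they numbered 18 and 12 higher and 6 and 27 lower, in place of 28 and 0, and for MII+BYBX minus GV 2 and 8 higher and 5 and 5 lower, in place of 0 and 33. The medians of writers and erasers became -0.44 and -0.066 with the same total and 0.75 and 0.89 with median centring for MII+DMSO minus GV, 0.40 and 0.0014 and -0.39 and -0.69 for MII+BYBX minus MII+DMSO, and -0.032 and -0.19 and 0.20 and 0.20 for MII+BYBX minus GV.

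With a pseudocount of 0.1 the medians of writers and erasers were -2.35 and -1.92 for MII+DMSO minus GV, writers were at 1.29 and erasers at 0.83 for MII+BYBX minus MII+DMSO, and erasers at -1.24 for MII+BYBX minus GV. A filter at 5 FPKM gave -2.22 and -1.91 for the first comparison, 0.78 for erasers in the second and -1.14 and -1.21 in the third, with 18 members higher with BYBX and 21 lower than GV, since fewer genes were tested. Over all tested entries this filter gave medians of -2.22, 1.07 and -1.10 for these comparisons in turn. No filter gave -1.08 and -0.95, 0.54 and 0.42, and -0.51 and -0.65 for writers and erasers. Over all entries no filter gave -0.68, 0.27 and -0.39, so members then fell more against GV and rose more with BYBX. The pseudocount of 0.1 gave -2.53, 1.29 and -1.19 over all tested entries. A minimum of 2-fold left 18 members higher with BYBX. The cause of the other changes was not tested.

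Without 1 library at a time, members lower in MII+DMSO numbered 37 to 43, members higher with BYBX 24 to 29, and members of MII+BYBX 26 to 33 lower and 0 to 1 higher than GV, the 1 without MII+BYBX 2. The median of erasers ranged from -1.63 to -1.28, from 0.48 to 0.74 and from -1.03 to -0.70 in the 3 comparisons, and that of writers from -1.81 to -1.43, 0.78 to 1.09 and -1.0 to -0.60. The ratio of writers to erasers lay between 1.38 and 1.43 in GV, 0.82 and 0.886 in MII+DMSO, and 1.24 and 1.43 in MII+BYBX. In 2 added alternatives, chosen with the values seen, it was 0.696 in GV and 0.826 in MII+BYBX without the 3 writers of highest GV mean, and 1.29 in GV and 0.971 in MII+DMSO without the 3 highest members on both sides.

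Same-numbered libraries correlated in their deviations from the group mean at 0.487 and 0.282 between GV and MII+DMSO. The values were -0.33 between GV and MII+BYBX and -0.601 and -0.348 between MII+DMSO and MII+BYBX. In a group of 2 libraries the deviations are exact opposites, so GV and MII+BYBX give only 1 value. With 2 or 3 libraries a group, these values cannot show whether the replicate numbers pair the samples, and the main fit used no replicate number. With the number as a block, 40 members were lower in MII+DMSO, 24 higher with BYBX and 32 lower than GV in MII+BYBX, the median of erasers in the first comparison was -1.63, and Kdm1b lost its call with BYBX (limma adjusted p = 0.107).

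Signs of named members turned with the scale. For MII+DMSO minus GV, same total and median centring gave 0.48 and 1.0 for Prmt2, 0.80 and 1.48 for Hdac8, 0.61 and 1.9 for Prmt1, 1.36 and 1.95 for Sirt4, 1.65 and 2.21 for Kmt2c and 0.71 and 1.32 for Kdm1a, and median centring alone turned Kdm1b (0.17), Hdac2 (0.086) and Hdac1 (0.58). For MII+BYBX minus MII+DMSO they gave -0.36 and -0.80 for Prmt2, -0.18 and -0.69 for Hdac8 and -0.21 and -0.69 for Kdm1a, and median centring turned Kdm1b (-0.24), Hdac2 (-0.30) and Hdac1 (-0.65). For MII+BYBX minus GV, Sirt4 turned to 0.86 and 1.0, and to 0.10 and 0.13 without GV 1 and MII+BYBX 2, Kmt2c to -0.051 without GV 2, and Prmt1 ranged from -0.56 without MII+BYBX 1 to 1.54 without MII+BYBX 2.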
